A study of Drosophila melanogaster with 4 samples.

Results

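The synaptic release machinery is described here as a module of 32 genes, out of 13964 genes listed in the deposited matrices, that encode the proteins with which a presynaptic terminal docks, fuses and recovers its vesicles. The members were taken by symbol: 5 calcium sensors (*Syt1*, *Syt4*, *Syt7*, *Sytalpha*, *Sytbeta*), 8 genes of the SNARE complex and its regulators (*nSyb*, *Syx1A*, *Snap25*, *Rop*, *comt*, *cpx*, *unc-13*, *Cadps*), 5 active zone genes (*brp*, *Rim*, *Rbp*, *Liprin-alpha*, *CASK*), 5 vesicle-associated genes (*Syn*, *Rab3*, *Rab27*, *Rph*, *Csp*) and 9 endocytosis genes (*lap*, *shi*, *EndoA*, *Synj*, *stnA*, *stnB*, *nwk*, *Dap160*, *Eps-15*). All 32 symbols were found, and 30 of them had at least 1 UMI (unique molecular identifier, a count of 1 captured RNA molecule).

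Cells came from dissected adult eyes of the wild-type *Drosophila melanogaster* strain Canton-S and were profiled by droplet single-cell RNA sequencing. There were 4 libraries: males at 1, 3 and 7 days of age and females at 1 day. Each age and sex was 1 library of pooled eyes, no genotype, drug or light treatment was compared, and actinomycin D, an inhibitor of transcription, was present during the dissociation of all 4. The question taken up here was how the release genes differ between the photoreceptor classes, between photoreceptors and the other neurons left in the preparation, and between male ages, with pigment cells as the background.

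Photoreceptors of the fly are tonic neurons that use histamine as their transmitter. The outer cells R1-6 carry the rhodopsin *ninaE* and end in the lamina, and the inner cells R7 (*Rh3* or *Rh4*) and R8 (*Rh5* or *Rh6*) end deeper, in the medulla. Vesicle fusion in all of them rests on SNARE proteins on the vesicle and the plasma membrane, on synaptotagmins that bind calcium, on the active zone scaffold around *brp* and on retrieval of membrane through dynamin, encoded by *shi*.

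The libraries held 98373676, 44430651 and 17654226 UMIs in the males of 1, 3 and 7 days and 74438691 in the 1-day females, and 13788, 7990, 5897 and 7058 cells were kept. Clusters were named from marker genes and are called R1-6-like, R7-like, R8-like and pigment-like, while other neurons were cells with at least 2 UMIs of *fne*, an RNA-binding protein gene of neurons. In the same order these held 4114, 3457, 2465 and 2835 R1-6-like cells, 730, 486, 416 and 380 R7-like cells, 807, 573, 501 and 473 R8-like cells, 1691, 572, 515 and 752 other neurons, and 3005, 947, 1030 and 385 pigment-like cells. A further 7.98 to 10.8% of eye cells lay in clusters with markers of more than 1 class and were left out. These clusters held 910, 755, 509 and 561 cells, more than the R7-like class of each library. All had *Rh3* or *Rh4* raised beside high *ninaE*, and fewer UMIs per cell than the R7-like clusters. Results for R7-like cells thus cover only part of the cells with R7 rhodopsins. Another 0.537 to 20.8% lay in clusters that met the naming rule of no class and were left out too. Among them were clusters with raised pigment genes such as *Pdh* and *santa-maria* or with *Rh3* and *salm*. Between each pair of libraries 12 to 37 barcodes were shared. The *fne* level of the classes was fixed by this rule. *VGlut*, the glutamate transporter of other neurons, stood at 437 to 1263 CPM in other neurons and at no more than 2.69 CPM in any photoreceptor class. Eye clusters with at least 2 of *fne*, *VGlut* and *Gad1* raised were left unnamed, so the low *VGlut* of photoreceptors was partly set by the naming. *ninaE* stood at 126437 to 181564 CPM in the R1-6-like class and also at 16224 to 91438 CPM in the R7-like and R8-like classes. The inner classes were thus not free of the R1-6 rhodopsin, and its source there was not tested. In pigment-like cells, which do not use *ninaE*, its level set an upper limit of 2.53 to 13.6% on the share of their UMIs that came from free RNA. This limit, and the limits for single genes below, took free RNA to have the mix of genes of all cell barcodes of the library. The mix of free RNA itself was not measured.

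All 30 members with UMIs were detected in other neurons above the level that free RNA of this mix could supply, in all 3 male libraries. In R1-6-like cells 26 of the 30 were above that level, the exceptions being *CASK*, *Rab27*, *Sytalpha* and *Sytbeta*, and in pigment-like cells 12 were. The share of all genes above these limits was not counted. For other neurons the limit was only 6.79 to 18.2% of a gene's level in all barcodes of a male library. Some members passed on very few UMIs, such as *Sytbeta* at 0.453 CPM in other neurons of the 7-day males. In pigment-like cells *Sytbeta* passed at 0.310 and 0.507 CPM at 3 and 7 days. Summed over the module, R1-6-like cells held 11031, 6958 and 7452 CPM in males of 1, 3 and 7 days and 7432 CPM in females. The R7-like sums were 12353, 7879, 8126 and 8955 CPM and the R8-like sums 11989, 7867, 8044 and 9296 CPM in the same order. The photoreceptor classes thus lay close together, and in each library R1-6-like cells were the lowest of them. Other neurons held 35156, 26013, 27552 and 30083 CPM, above every photoreceptor class in each library, and pigment-like cells 1399, 621, 863 and 471 CPM. Complexin (*cpx*), the small protein that clamps the SNARE complex, gave the most UMIs of the module in every class and library. Other neurons were above each photoreceptor class in all 3 male libraries for 28 of 30 members, and all 28 kept this order in the female library. All photoreceptor classes were above pigment-like cells for 24 of 30 members in the 3 male libraries and also in the female library. The share of all genes in either order was not counted. Against other neurons most genes were lower without the TMM scaling described below, with 3671 called lower and 493 higher in R1-6-like cells.

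**Figure D1:**
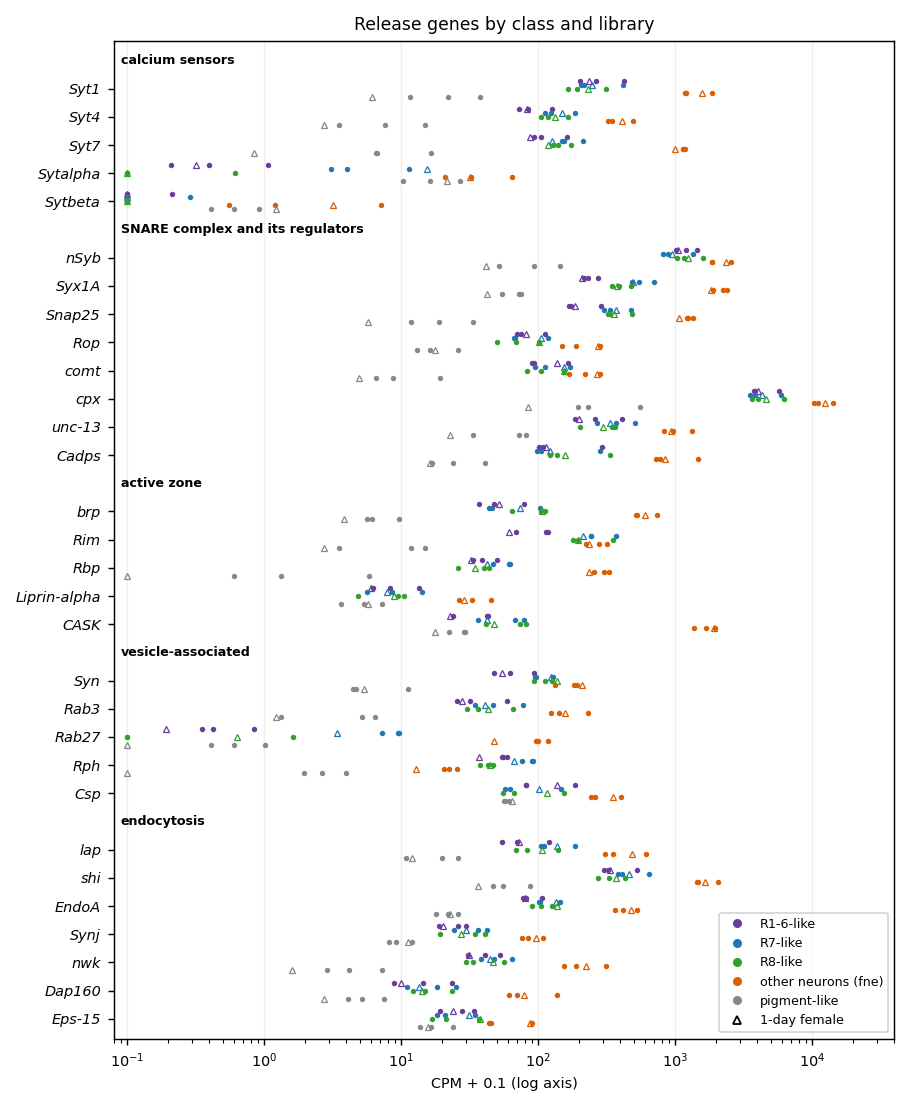
Level of each member (CPM + 0.1, log axis) in the R1-6-like, R7-like, R8-like, other neuron and pigment-like cells, with 1 point per library (open triangles, females) and members grouped by role. Neurons are the highest class for nearly all members, *Rph* is higher in every photoreceptor class than in neurons, and *Sytalpha* is higher in pigment-like cells than in R1-6-like cells.

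The CPM and the fold changes that follow are on different scales. Rhodopsins took 12.7 to 18.3% of the UMIs of R1-6-like cells and 0.85 to 1.70% of those of other neurons, and the fold changes are from edgeR with TMM scaling, which places the classes so that most genes are level. Without TMM and without the rhodopsins the median log2 fold change of all genes against other neurons moved from −0.13 to −1.01 in R1-6-like cells, from −0.28 to −0.77 in R7-like cells and from −0.21 to −0.82 in R8-like cells. Differences are therefore given relative to the other genes, and members near 0 can lie below neurons in CPM. The 3 male libraries were the replicates and each was a block, so age and library could not be told apart, and how cells were sorted into classes adds error that no p-value here covers.

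Relative to the other genes, photoreceptors carried less RNA of most release genes than other neurons did. A call required an adjusted p under 0.05 and a change over 2-fold. In R1-6-like cells 16 of 29 members tested were called lower and 1 higher, where 27.4% of 7462 genes were called lower and 18.8% higher. In R7-like cells again 16 were lower and 1 higher, against 27.6% and 14% of genes, and in R8-like cells 16 and 1, against 26.3% and 14.6% (edgeR's quasi-likelihood test with Benjamini-Hochberg adjustment). The median log2 fold change of the members was −1.02, −1.09 and −1.18 in the R1-6-like, R7-like and R8-like cells. In all 3 classes 13 members were called lower, where 20.8% of genes were: *CASK*, *Cadps*, *Dap160*, *EndoA*, *Rab27*, *Rbp*, *Syt1*, *Syt7*, *Sytalpha*, *Syx1A*, *brp*, *nwk* and *shi*. All 17 calls of each contrast had the same direction in CPM in 3 of 3 male libraries, which made the calls. The same held in the female library, which was not used in the fit. This direction was taken in CPM and not on the TMM scale. Without TMM most genes lay lower in photoreceptors than in other neurons, so the agreement adds little for the 16 lower calls. Under the scale without TMM the number of all genes higher and lower was 493 and 3671 for R1-6-like cells, 555 and 3108 for R7-like cells and 513 and 3110 for R8-like cells, in place of 1406 and 2043, 1045 and 2056, and 1086 and 1962.

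Among the calcium sensors, *Syt1*, the sensor of fast synchronous release, was at 422, 201, 265 and 238 CPM in the R1-6-like class (males of 1, 3 and 7 days, then females) and at 1871, 1188, 1197 and 1564 CPM in other neurons. The R7-like values were 415, 205, 217 and 248 CPM and the R8-like values 314, 165, 193 and 232 CPM. No photoreceptor library reached the lowest neuron library. The log2 fold changes against other neurons were −1.19 ± 0.15 (SE), −1.65 ± 0.15 and −1.84 ± 0.15 in R1-6-like, R7-like and R8-like cells, with adjusted p of 4.7e-06, 2.6e-07 and 9.8e-08. *Syt7*, a sensor of slower release and vesicle recruitment, was lower by more: it was at 163, 105, 93.0 and 87.0 CPM in the R1-6-like class and 1194, 1153, 1152 and 1008 CPM in other neurons, with log2 fold changes of −2.22, −2.05 and −2.16. *Syt4*, a synaptotagmin without fast calcium sensing that acts postsynaptically in the larval muscle, missed the fold limit in all 3 classes, with log2 fold changes between −0.95 and −0.74. *Sytbeta* had at most 24 UMIs in any class of any library and failed the filter on low counts.

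The core of the SNARE complex divided. The vesicle protein synaptobrevin (*nSyb*) was at 1444, 1015, 1202 and 1049.7 CPM in the R1-6-like class and 2549, 1872, 1853 and 2377 CPM in other neurons. On the TMM scale its log2 fold change was 0.34 ± 0.18 in R1-6-like, −0.31 ± 0.18 in R7-like and 0.12 ± 0.18 in R8-like cells, and none was called, so its direction depended on the scale. Syntaxin (*Syx1A*), its partner on the plasma membrane, was at 276, 217, 232 and 211 CPM in the R1-6-like class, 549, 487, 699 and 494 CPM in the R7-like class and 392, 349.6, 475 and 376 CPM in the R8-like class. Other neurons held 1884, 2260.0, 2418 and 1831 CPM, above all of these, and the 3 photoreceptor classes did not overlap one another either. The log2 fold changes against other neurons were −2.07 ± 0.14, −1.20 ± 0.13 and −1.59 ± 0.14, all called. *Snap25*, the third SNARE protein, was called lower in R1-6-like (−1.56 ± 0.18) and R7-like cells (−1.09 ± 0.18) but not in R8-like cells (−0.94 ± 0.18), and without the 7-day library the R7-like value was −0.96 and was not called.

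Of the regulators, *Cadps*, which primes dense core and synaptic vesicles, was called lower in all 3 classes (−1.56, −1.97 and −1.56). The priming factor *unc-13* had log2 fold changes of −0.81, −0.73 and −0.94, under the fold limit. The Sec1/Munc18 gene *Rop* (−0.14, −0.57 and −0.64), the NSF gene *comt* (0.14, −0.09 and −0.14) and *cpx* (−0.33, −0.72 and −0.54) were called in no class. *comt* and *cpx* were nonetheless lower in CPM in every photoreceptor class of every library than in other neurons, *cpx* at 5765, 3832, 3763 and 4039.6 CPM in the R1-6-like class against 14299.8, 10336, 11084 and 12529.8 CPM.

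The active zone genes differed widely among themselves. Bruchpilot (*brp*), the scaffold of the T-bar, was at 78.4, 37.0, 48.1 and 51.5 CPM in the R1-6-like class, 103, 46.0, 44.0 and 74.3 CPM in the R7-like class and 112, 64.9, 106 and 107 CPM in the R8-like class. Other neurons held 744, 529, 522 and 605 CPM, and no photoreceptor value came near them. The log2 fold changes were −2.40 ± 0.17, −2.53 ± 0.18 and −1.84 ± 0.17. The RIM-binding protein gene *Rbp* was also called lower in all 3 classes (−1.76, −1.66 and −2.20), and *Liprin-alpha*, a scaffold for active zone assembly and transport, in R7-like (−1.18) and R8-like cells (−1.31).

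*CASK*, a membrane-associated guanylate kinase (3R:21783400-21822674, minus strand, dm6), had the widest gap to other neurons among the active zone genes and was near the background in R1-6-like cells. The level there was 43.1, 23.9, 42.2 and 22.7 CPM, against 29.4, 22.4, 28.9 and 17.6 CPM in pigment-like cells and 1976, 1384, 1691 and 1943 CPM in other neurons. The R7-like values of 68.1, 36.3, 78.8 and 42.5 CPM and the R8-like values of 73.6, 42.0, 81.5 and 47.6 CPM were higher than the R1-6-like and the pigment-like value of the same library in every case. Against other neurons the log2 fold changes were −4.47 ± 0.17, −4.11 ± 0.17 and −3.88 ± 0.17 (adjusted p of 4.3e-11, 1.7e-10 and 3.2e-10). With each cell thinned to 1000 UMIs, 79.1% of other neurons of the 1-day male library had a *CASK* UMI (95% Clopper-Pearson interval 77.1 to 81.1), 4.81% of R1-6-like cells (4.16 to 5.52) and 4.06% of pigment-like cells (3.25 to 5.01), and these intervals cover counting error only. Without thinning the shares were 95.3%, 27.9% and 8.39%, at median depths of 4960, 7097.5 and 1991 UMIs per cell. Thinning left out 39, 164 and 938 shallower cells. The gene shares 28.0% of its exon bases with the noncoding gene *lncRNA:CRG* on the same strand, and reads in that stretch could not be given to either.

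*Rim* behaved differently from the other active zone genes. Rim binds vesicular Rab3 and calcium channels and tethers vesicles at the release site. It was at 119, 68.9, 115 and 61.6 CPM in the R1-6-like class, 244, 243, 368 and 215 CPM in the R7-like class, 196, 182, 353 and 197 CPM in the R8-like class and 319, 280.2, 223 and 236 CPM in other neurons. Inner photoreceptors thus overlapped other neurons, and R1-6-like cells lay below both. Against other neurons no class was called (log2 fold changes of −0.41, 0.74 and 0.60, adjusted p of 0.2, 0.028 and 0.075).

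Rabphilin (*Rph*, X:10749077-10757666, minus strand), in mammals a vesicle protein that binds Rab3 and Rab27, was the only member called higher in photoreceptors. Its level was 54.7, 55.7, 59.0 and 37.3 CPM in the R1-6-like class, 90.7, 77.0, 92.5 and 66.5 CPM in the R7-like class and 43.1, 37.5, 47.1 and 44.4 CPM in the R8-like class. Other neurons held 22.2, 20.5, 25.4 and 12.8 CPM, below every photoreceptor value, and pigment-like cells 3.88, 1.86, 2.54 and 0 CPM, where 0 UMIs allow up to 1.12 CPM. The log2 fold changes were 2.43 ± 0.15, 2.67 ± 0.16 and 1.75 ± 0.16 (adjusted p of 3.6e-09, 2.9e-09 and 2.5e-07), and on the scale without TMM they were 1.55, 2.18 and 1.15.

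**Figure D2:**
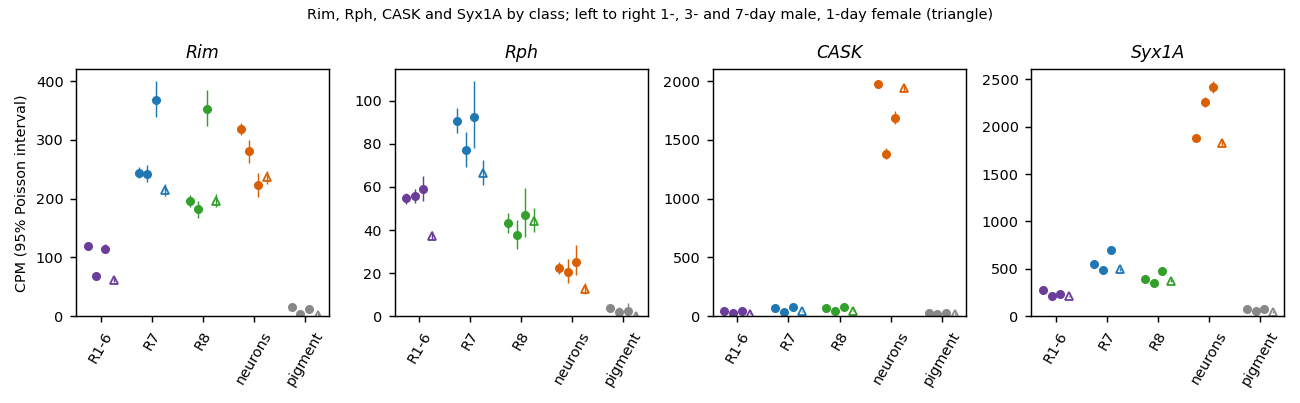
CPM of *Rim*, *Rph*, *CASK* and *Syx1A* in each class, with 1 point per library (males of 1, 3 and 7 days, then females as a triangle) and 95% Poisson intervals. *Rim* in R7-like and R8-like cells overlaps other neurons, *Rph* is lowest in other neurons and pigment-like cells, and *CASK* is far higher in other neurons than in any other class.

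Of the other vesicle-associated genes, *Syn*, the vesicle-tethering synapsin, was called in no class (−0.23, 0.07 and 0.23). *Rab3* was called lower in R1-6-like (−1.02 ± 0.15) and R8-like cells (−1.08 ± 0.16), and the R1-6-like call was lost without the 3-day library (−0.99) and without the 7-day library (−0.91). *Csp*, a vesicle chaperone, was called only in R7-like cells (−1.10 ± 0.22), and that call was lost without the 7-day library (−0.92).

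Of the 7 endocytosis genes tested, 5, 4 and 5 were called lower and none higher in the R1-6-like, R7-like and R8-like cells, where 27.4%, 27.6% and 26.3% of all genes were lower. Dynamin (*shi*) was at 532, 305, 322 and 335 CPM in the R1-6-like class and 2046, 1444, 1470.0 and 1664 CPM in other neurons. Its log2 fold changes were −1.02, −1.07 and −1.42, and the R1-6-like call was lost without the 3-day library (−0.99) and without the 7-day library (−0.89). With free RNA subtracted its values were −1.36, −1.41 and −1.77, and all 3 calls were lost on their adjusted p. The membrane-bending *EndoA* (−1.19, −1.17 and −1.18), the scaffold *Dap160* (−1.46, −1.61 and −1.51) and the actin regulator *nwk* (−1.26, −1.37 and −1.59) were called lower in all 3 classes. The clathrin adaptor *lap* was called in R1-6-like (−1.29) and R8-like cells (−1.28), with −0.91 in R7-like cells. The phosphatase gene *Synj* and *Eps-15* were called in none, with log2 fold changes of −0.77 to −0.71 and −0.54 to −0.04. The remaining pair, *stnA* and *stnB*, had 0 UMIs in every library. The annotation gives both the same span (X:22980722-23004648, minus strand) and the same exons, since they are read from 1 dicistronic transcript, and the counting assigns only reads that belong to a single gene, so their RNA was not measured.

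**Figure D3:**
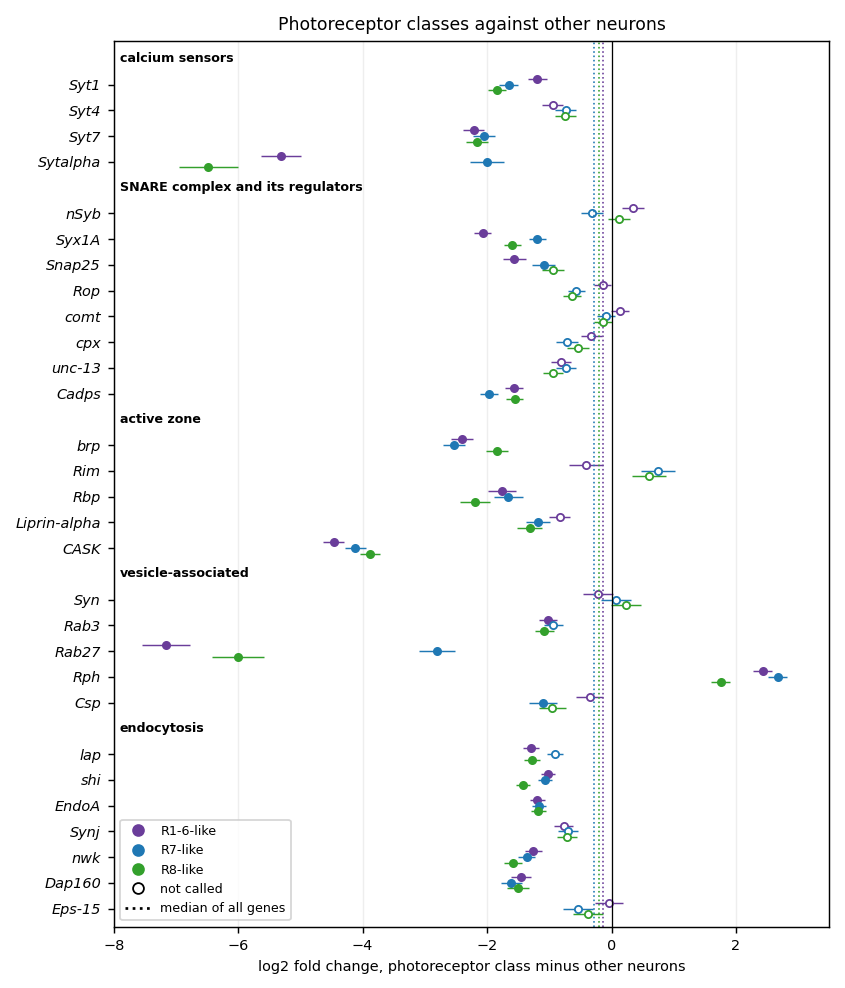
Log2 fold change (± SE) of each tested member in R1-6-like, R7-like and R8-like cells against other neurons, on the TMM scale, with members grouped by role, calls filled and dotted lines at the median of all genes. *Rph* lies to the right in all 3 classes, *CASK* lies far to the left in all 3, and *Rab27* and *Sytalpha* lie far to the left in R1-6-like and R8-like cells but less so in R7-like cells.

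Differences among the photoreceptor classes were few. R7-like cells had 3 members higher and 0 lower than R1-6-like cells, where 4.6% and 4.74% of genes were called. R8-like cells had 1 higher and 0 lower than R1-6-like cells, where 4.25% and 2.6% of genes were, and R7-like cells had 2 higher and 0 lower than R8-like cells, where 1.11% and 0.978% were. On the scale without TMM the genes higher and lower were 546 and 112 in the first of these comparisons and 438 and 96 in the second, in place of 343 and 354 and of 317 and 194.

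*Rim* was called higher in R7-like than in R1-6-like cells (log2 fold change of 1.15 ± 0.27, adjusted p of 0.009) and higher in R8-like than in R1-6-like cells (1.00 ± 0.27, adjusted p of 0.024; edgeR's quasi-likelihood test with Benjamini-Hochberg adjustment). In CPM both inner classes were above the R1-6-like cells in each of the 4 libraries. Both calls sat at the fold limit and were lost without the 3-day library (0.99 and 0.95) and without the 7-day library (1.00 and 0.73). *Syx1A* was higher in R7-like than R1-6-like cells by 0.87 ± 0.13, and *Rph* higher in R7-like than R8-like cells by 0.92 ± 0.15 (adjusted p of 0.002), both under the fold limit.

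*Rab27* (X:1473884-1476974, minus strand), a small GTPase of secretory vesicles, separated R7-like cells from the other classes. It was at 9.52, 9.41, 7.22 and 3.31 CPM in the R7-like class, at 0.252, 0.324, 0.739 and 0.0933 CPM in the R1-6-like class and at 1.54, 0, 0 and 0.53 CPM in the R8-like class, where the 0 values allow up to 0.893 CPM at 3 days and 2.02 CPM at 7 days. Other neurons held 96.2, 119, 100.1 and 47.3 CPM. The R7-like values were above both other photoreceptor classes in each library and below other neurons, with log2 differences of 4.35 ± 0.43 from R1-6-like cells (adjusted p of 5.9e-06) and 3.19 ± 0.49 from R8-like cells (adjusted p of 0.002).

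*Sytalpha* (2L:17592260-17604387, plus strand), a synaptotagmin of less well known function, had the same outline. It was at 11.3, 2.99, 3.94 and 15.4 CPM in the R7-like class, at 0.979, 0.108, 0.296 and 0.218 CPM in the R1-6-like class and, in R8-like cells, at 0.512 CPM in the 1-day males and 0 in the others, which allows up to 0.893, 2.02 and 0.53 CPM. Other neurons held 65.1, 32.6, 20.8 and 31.5 CPM, and pigment-like cells were also above the R7-like cells in each library. R7-like cells were above the other photoreceptors in each library, by 3.31 ± 0.36 on the log2 scale over R1-6-like cells (adjusted p of 1.5e-05) and 4.47 ± 0.56 over R8-like cells (adjusted p of 0.00034).

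The R7-like cells could be divided by rhodopsin into those with mainly *Rh3* and those with mainly *Rh4*, the rhodopsins of pale and yellow ommatidia. *Rab27* and *Sytalpha* fell on opposite sides. The *Rh3* cluster of the 3-day males also had *hth* and *Skeletor* raised. The study used *hth* to mark dorsal rim cells and proposed *Skeletor* as a further marker. In the 1-day and 7-day males, cells with both formed a separate cluster that was left out, so the *Rh3* cells were not all pale. The *Rh3* cells numbered 346, 259, 197 and 230 and the *Rh4* cells 285, 209, 184 and 99. *Rab27* had 90, 44, 10 and 23 UMIs in *Rh4* cells, or 20.9, 21.3, 14.3 and 11.5 CPM. In *Rh3* cells it had 5, 0, 1 and 1 UMIs, or 0.983, 0, 1.43 and 0.214 CPM, where 0 UMIs in the 3-day library allow up to 1.22 CPM. The subtypes did not overlap in any library, and the log2 difference of *Rh3* from *Rh4* cells was −4.75 ± 0.48 (adjusted p of 1.8e-07). The UMIs were spread over cells: in the 1-day males 56 of 285 *Rh4* cells (19.6%, 15.2 to 24.7) carried 1 to 4 *Rab27* UMIs, against 5 of 346 *Rh3* cells (1.45%, 0.471 to 3.34), at median depths of 12045 and 11130 UMIs.

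*Sytalpha* was higher on the *Rh3* side. *Rh3* cells held 103, 12, 6 and 100 UMIs, or 20.2, 4.90, 8.59 and 21.4 CPM, and *Rh4* cells 14, 2, 0 and 4 UMIs, or 3.25, 0.970, 0 and 2.01 CPM, where the 0 of the 7-day males allows up to 4.28 CPM. The *Rh3* value was above the *Rh4* value in each library, with a log2 difference of 2.68 ± 0.37 (adjusted p of 3.5e-05). Without the 1-day or the 3-day library, *Sytalpha* failed the filter on low counts and was not tested, whereas *Rab27* was called without any of the 3 (−5.55 to −4.23). The *Sytalpha* call was also lost when library was not a block. These were the only members called between the subtypes, 1 higher and 1 lower in *Rh3* cells, where 0.497% and 0.386% of 5437 genes were.

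Between *Rh5* and *Rh6* cells among the R8-like cells 0 members were called, where 0.276% of genes were higher and 0.423% lower in *Rh5* cells. At an unadjusted p under 0.05 there were 2 members, and DESeq2 called 0.

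**Figure D4:**
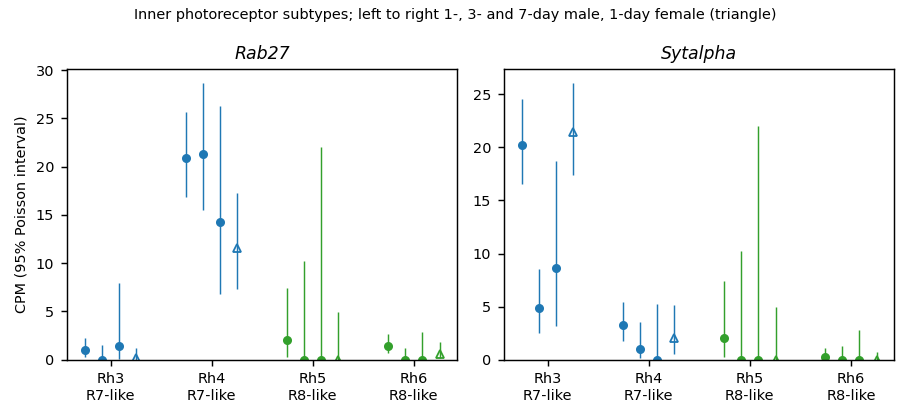
CPM of *Rab27* and *Sytalpha* in R7-like cells with mainly *Rh3* or *Rh4* and R8-like cells with mainly *Rh5* or *Rh6*, with 1 point per library (females as a triangle) and 95% Poisson intervals. *Rab27* is high in *Rh4* cells and *Sytalpha* in *Rh3* cells, and both are near 0 in the R8-like subtypes.

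Against pigment-like cells, the background class, the 3 photoreceptor classes together had 24 of 29 members higher and 1 lower, where 23.8% and 25.6% of genes were called. Other neurons had 28 higher and 0 lower, where 31.7% and 26% of genes were, and on the scale without TMM 3296 genes were higher and 1351 lower in other neurons, in place of 2369 and 1940. The median log2 fold change of the members was 2.96 for photoreceptors and 4.13 for other neurons, where all genes had medians of 0.06 and 0.17. With free RNA subtracted, which leaves many members near 0 in pigment-like cells, these medians were 6.55 and 9.46, so the size of the difference depended on that background while 25 and 28 members were then higher. *Rph* (4.56 ± 0.18), *Rim* (4.49 ± 0.32), *cpx* (4.17 ± 0.18) and *Snap25* (4.17 ± 0.20) had the widest differences between photoreceptors and pigment-like cells. The pigment-like level of each was at 0.412 to 0.692 times the free RNA limit in the male libraries. *Csp* (0.93), *Liprin-alpha* (0.99) and *Eps-15* (0.86) were under the fold limit, and *Rab27* had an adjusted p of 0.058. The *CASK* call (1.22 ± 0.14) was lost without the 7-day library (0.99) and with free RNA subtracted (3.09, on its adjusted p), and the *Eps-15* call of other neurons (1.18 ± 0.26) without the 1-day library (0.63).

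*Sytalpha* was the member that was lower in photoreceptors than in pigment-like cells. Pigment-like cells held 27.0, 10.2, 16.2 and 21.7 CPM, above all 3 photoreceptor classes of each library. R7-like cells were the nearest, at 11.3, 2.99 and 3.94 CPM in males of 1, 3 and 7 days. The log2 fold change of photoreceptors was −4.01 ± 0.27 (adjusted p of 3.9e-09), and other neurons were above pigment-like cells by 0.59 ± 0.24, which was not called. The pigment-like level was 12.6, 29.6, 19.5 and 124 times the free RNA limit, which holds only if free RNA had the mix of all barcodes. The R1-6-like level was at most 0.51 times its limit in the 3 male libraries.

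Male age was compared without a test, since each age was 1 library, and a change was counted past 2-fold among genes with at least 100 UMIs over the ages compared. At 7 days against 1 day, 0 of 27 members were over 2-fold higher and 2 lower in R1-6-like cells, where 2.87% and 13.6% of genes were. The counts were 0 and 4 of 29 in R7-like cells (4.34% and 15.7% of genes), 0 and 4 of 26 in R8-like cells (3.68% and 13%) and 0 and 2 of 29 in other neurons (4.17% and 9.57%). These shares were near those of all genes. The medians of the members were −0.62, −0.58, −0.50 and −0.51 on the log2 scale in the 4 classes, below the medians of all genes at −0.26, −0.17, −0.14 and 0.04. Of 26 members measured in all 4 classes, 18 were below 0 in each, as were 32.6% of 3676 genes, and 1 member, *Rph*, was above 0 in each. The libraries also differed in depth, with a median of 7097.5 UMIs per R1-6-like cell at 1 day and 1922 at 7 days, and the part of depth in these values was not tested. The make-up of other neurons differed too. Of 1691, 572 and 515 cells at 1, 3 and 7 days, 998, 250 and 219 had at least 2 UMIs of the cholinergic marker *ChAT*. For *VGlut* these were 514, 133 and 196, and the part of this mix in the ratios was not tested.

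*Cadps* fell past 2-fold in all 3 photoreceptor classes. In males of 1, 3 and 7 days it was at 292, 102 and 109 CPM in the R1-6-like class, a ratio of 7 days to 1 day of 0.373 (95% counting interval 0.345 to 0.402). It was at 282, 106 and 97.8 CPM in the R7-like class (ratio of 0.347) and 333, 123 and 137 CPM in the R8-like class (ratio of 0.412), and the ratio in other neurons was 0.531. The level at 3 days was close to that of 7 days in each class, and the 1-day females, at 115, 122 and 158 CPM in the photoreceptor classes, were nearer to the older males than to the males of their own age. *Csp* was likewise past 2-fold lower in the 3 photoreceptor classes, from 186 to 82.4 CPM in the R1-6-like class, from 148 to 57.8 CPM in the R7-like class and from 154 to 55.2 CPM in the R8-like class, and here the females stood between, at 137, 101 and 116 CPM. In R7-like cells with under 5% *ninaE* the log2 ratio of *Csp* was −0.95, within the fold limit. The others past 2-fold were *brp* (ratio of 0.427) and *Sytalpha* (0.348) in R7-like cells, *Rop* (0.489) and *Eps-15* (0.459) in R8-like cells, and *Sytalpha* (0.320) and *Eps-15* (0.477) in other neurons.

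*Rim* had opposite directions in inner photoreceptors and other neurons. The 7-day value was 1.51 times the 1-day value in R7-like cells (1.38 to 1.65) and 1.80 times in R8-like cells (1.63 to 1.99), while it was 0.699 times in other neurons (0.635 to 0.768) and 0.969 times in R1-6-like cells (0.897 to 1.05). *Syn* was 1.48 times the 1-day value in R1-6-like cells (1.36 to 1.62) and 0.692 times in other neurons (0.611 to 0.782). Its R1-6-like level was 62.8, 47.6 and 93.2 CPM at 1, 3 and 7 days, so the 3-day value lay below the 1-day value. With 1 library per age these differences between classes were not tested, and in R7-like and R8-like cells the 3-day value of *Rim* was not above the 1-day value. The *ninaE* level of the inner classes fell over the same ages, and the source of this *ninaE* was not tested. It was at 63560, 59990 and 16224 CPM in the R7-like class at 1, 3 and 7 days. In the R8-like class it was at 91438, 86026 and 55682 CPM. With these classes limited to cells holding less than 5% *ninaE*, a limit chosen after seeing the data, *Rim* was at 329, 330.04 and 375 CPM (R7-like) and 352, 291 and 432 CPM (R8-like), and the ratio of 7 days to 1 day was 1.14 (1.02 to 1.27) and 1.23 (1.08 to 1.40).

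**Figure D5:**
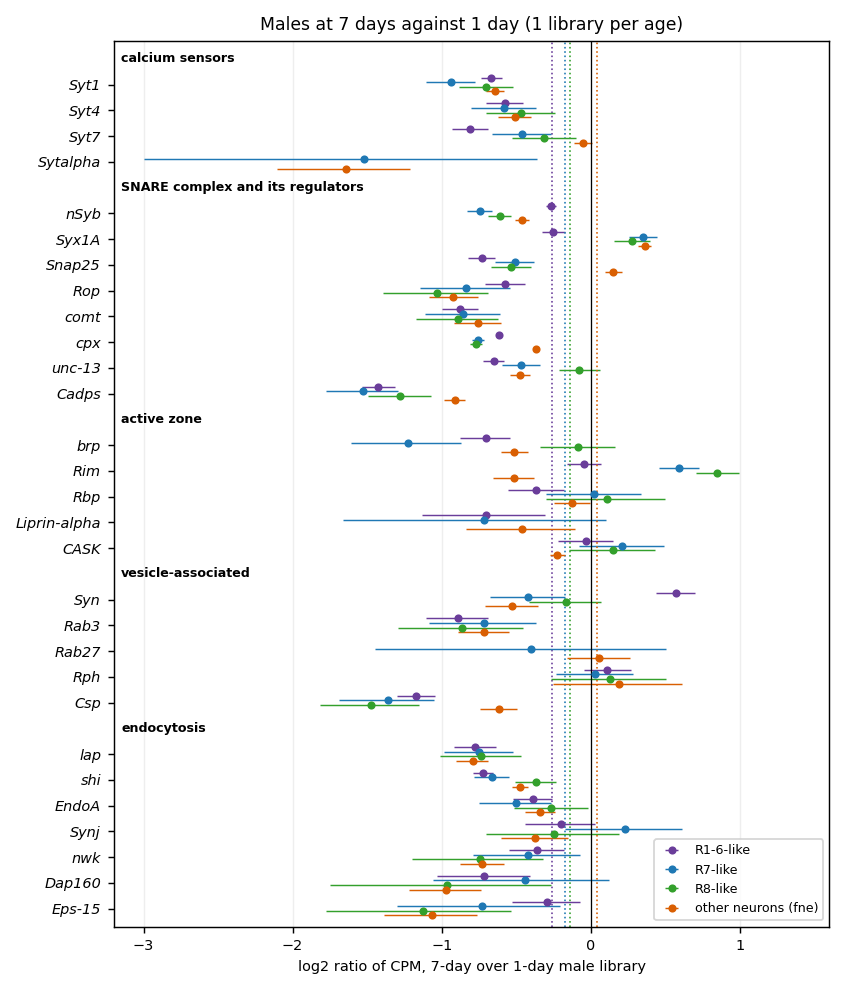
Log2 ratio of CPM of each member at 7 days over 1 day in males, 1 library per age, in R1-6-like, R7-like, R8-like cells and other neurons, with 95% counting intervals and dotted lines at the median of all genes. Most members lie left of 0, *Cadps* and *Csp* lie past 2-fold in the photoreceptor classes, and *Rim* lies right of 0 in R7-like and R8-like cells.

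A list of 37 further release genes gave a comparison, and 35 of them were found. Against other neurons 4 were higher and 13 lower in R1-6-like cells, while R7-like cells had 2 and 12 and R8-like cells 3 and 16, and their medians of −0.17, −0.55 and −0.76 on the log2 scale were nearer to 0 than those of the module. Of all genes 27.4%, 27.6% and 26.3% were lower in these contrasts. In all 3 classes 11 of the list were lower and 2 higher, where 20.8% of genes were lower in all 3. The active zone gene *Fife*, a relative of Rim and Piccolo, was at 115, 76.4, 27.2 and 37.8 CPM in other neurons and no more than 0.512 CPM in any photoreceptor class, with log2 fold changes of −8.58, −7.85 and −6.99. *Syt12* was at 24.6, 14.9, 8.60 and 9.44 CPM in other neurons and at most 1.66 CPM in photoreceptors (−8.44, −4.23 and −3.36), and *Esyt2*, an extended synaptotagmin of membrane contact sites, at 18.7, 19.8, 20.4 and 19.8 CPM and at most 1.19 CPM (−5.15, −6.42 and −4.41). Where photoreceptor libraries were at 0 the fitted value depends on the prior count and is not a bound.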

How the data were processed

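The authors aligned and counted reads with Cell Ranger 6.0.1 on genome build dm6 and deposited, for each of the 4 libraries, a filtered matrix of raw counts (UMIs per gene and cell) from before their correction for free RNA. No column of per-sample values was left unused (0 columns). The genes of the module, the lists of other release genes and cell markers, and the comparisons were chosen with earlier results of these data known.

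Cells with at least 200 genes and under the study's limits on genes and mitochondrial share were kept, and each library was clustered with Seurat 5.3.0 (SCTransform 0.4.2, 50 components, resolution 0.8). Clusters were named from markers, with at least 3 required for R7-like, R8-like and pigment-like, and other neurons were cells with at least 2 *fne* UMIs. Cells were called *Rh3*, *Rh4*, *Rh5* or *Rh6* when one rhodopsin held at least 70% of the UMIs of its pair and at least 5 UMIs. Doublets marked with scrublet in scanpy 1.11.5 were kept, and removed as an alternative. Raw counts were summed per class and male library, and 15 class sums and 12 subtype sums were tested with edgeR 4.0.16 (R 4.3.3): filterByExpr, TMM scaling, a quasi-likelihood fit over all genes with library as a block, and Benjamini-Hochberg adjustment. The block holds because the classes of 1 library came from the same flies. Calls needed an adjusted p under 0.05 and over 2-fold change. DESeq2 1.42.0 was an alternative. The edgeR fit of summed counts was tested on simulated data. Filtering, clustering and naming of cells, the limits on free RNA, thinning and the age ratios were not part of that test. All members are described by role, with full statistics for those called or out of order within their role, and, of the other release genes, the 3 with the largest change among those called.

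CPM and Clopper-Pearson or Poisson intervals (95%) cover counting error only, and a count of 0 was given an upper limit of 3 UMIs. Free RNA was limited in pigment-like cells and other neurons by *ninaE* and in R1-6-like cells by the pigment genes *Pdh* and *w*. Its mix of genes was taken from all barcodes of the filtered matrix, so the limits hold only for that mix. When free RNA was subtracted, R7-like and R8-like cells were given the share of pigment-like cells. Their own *ninaE*, at 18.1 to 119% of its level in all barcodes, was not used as a limit. This choice may subtract too little from them. Shares of cells were taken after thinning to 1000 UMIs. The libraries held 17654226 to 98373676 UMIs. Positions are from Ensembl release 115 on the dm6 assembly. Tables and plots were made with matplotlib 3.10.9, pandas 2.3.3, numpy 2.4.6 and scipy 1.17.1 in Python 3.11.15.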

Additional observations from a re-analysis of the deposited data

How the results depend on the processing

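No called member changed direction under any alternative in which it was followed. Of 1809 values of called members in the contrasts, 1777 kept their call and 32 lost it. Of 115 values over ages 6 no longer passed the fold. The 32 do not include the *Sytalpha* call in *Rh3* against *Rh4* cells. That call was also gone without the 1-day library, without the 3-day library and with no replicate block, where 0 members were higher in *Rh3* cells. Members that were not called, such as *nSyb*, were not followed in this way. With library sizes without rhodopsins and no TMM, 26 members were called in R1-6-like cells against other neurons in place of 17. With no fold limit 5 were higher and 4 lower in R7-like against R1-6-like cells, where 528 and 1086 of 7462 genes were. R8-like against R1-6-like cells also had 5 and 4, where 470 and 720 genes were. Another alternative, chosen after seeing the data, limited R7-like and R8-like cells to under 5% *ninaE*. It gave 4 higher and 1 lower in R7-like cells (434 and 588 genes). In R8-like cells it gave 1 and 1 (444 and 610 genes). In R8-like against R1-6-like cells the single call was lost (0) with no filter on low counts and with the female library added.

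The library block changed few calls. Without the replicate block 16 members were called in each class against other neurons, 2 in R7-like against R1-6-like, 0 in R8-like against R1-6-like, 1 in R7-like against R8-like, 26 in photoreceptors and 28 in other neurons against pigment-like cells, 1 in *Rh3* against *Rh4* and 0 in *Rh5* against *Rh6* cells. Leaving out each library in turn gave 15 to 17, 15 to 18 and 17 to 19 members against other neurons, 2 to 3 in R7-like and 0 to 1 in R8-like against R1-6-like cells, 2 in R7-like against R8-like cells, 25 to 27 and 27 to 28 against pigment-like cells, 1 to 2 in *Rh3* against *Rh4* cells and 0 in *Rh5* against *Rh6* cells.

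For the ages, a limit of 1.5-fold gave 14, 15, 13 and 11 members in R1-6-like, R7-like, R8-like cells and other neurons. Of these members 0, 1, 1 and 0 were higher and 14, 14, 12 and 11 lower. Of 5689, 4376, 3801 and 5946 genes, 535, 635, 496 and 1122 were higher and 1756, 1328, 1052 and 1227 lower. At 2-fold, 3 days against 1 day gave 9 members in R1-6-like cells, 8 in R7-like cells and 5 in other neurons, all lower. The genes higher and lower in these 3-day comparisons were 96 and 904, 64 and 527, and 195 and 467. With under 5% *ninaE*, 0 members were past 2-fold higher and 2 lower at 7 days in R7-like cells (76 and 409 genes). R8-like cells had 0 and 7 (23 and 310 genes). In other neurons 0 and 5 were past 2-fold with free RNA subtracted (235 and 485 genes). With rhodopsins under 2% of UMIs these were 0 and 4 (215 and 549 genes). Depth limits *Sytbeta*, *Rab27* and *Sytalpha*, which had few UMIs per library, and the 7-day library was the shallowest. The cause of these changes was not tested.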
